A study of Ovis aries with 14 samples.

Results

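Lungs of term lambs were compared with lungs of preterm lambs that had received 3 days of respiratory support, to see which transcripts still differed from the term level and in which direction. The comparison takes 8 of the 14 libraries of the series: 2 term libraries against 6 supported ones, chosen by the group named in the sample titles. The term lungs (replicates 2 and 3, labelled gd150) had no treatment. The supported lungs came from preterm lambs labelled gd134, of which 3 had invasive mechanical ventilation (IMV) and 3 had noninvasive respiratory support through a mask (NRS). Unsupported fetal lungs, 3 at the start of the support period (fetal start, labelled gd127, gd128 and gd131) and 3 at its end (fetal end, labelled gd134, gd135 and gd136), served as the fetal reference, before support and at about the age of the supported lambs. All libraries were made from total RNA of the right lower lung lobe of sheep (Ovis aries), and each came from a different animal. Term lambs were 16 days older than supported lambs by their labels, and whether birth or air breathing preceded sampling at term is not stated there. Age, birth and support cannot be told apart in these groups. In bulk tissue fewer cells of a type and less RNA per cell cannot be told apart either.

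Late in gestation the lung is filled with liquid, its walls thin, and the alveolar epithelium begins to secrete surfactant, the lipid and protein film that lowers surface tension. At birth the liquid is cleared and gas exchange begins. A preterm lung has to make this change before that programme is complete. IMV drives gas through a tube in the trachea and can stretch the immature airspaces, whereas NRS leaves the trachea without a tube.

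Library totals ran from 23267448 counts in NRS replicate 2 to 31586235 in IMV replicate 2. The table gives 27054 Ensembl gene identifiers without names, and 17069 genes had enough counts to be tested. Because no identifier could be paired with a symbol, the labelled tissue could not be checked against lung markers, and genes are described by identifier, level and pattern across groups. Abundance is in CPM, counts scaled to the size of the library, and a log2 fold change of 1 is a doubling.

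Measured over all tested genes, the supported lungs lay between the fetal and the term lungs. The NRS lungs lay nearly as close to term as the term lungs, a single pair, lay to each other. The first principal component of log2 CPM, which held 25.6% of the variance, placed the term libraries at 59.4 and 45.8. The NRS libraries scored 22.0, 27.2 and 27.0 and the IMV libraries 25.8, 3.2 and 13.9, so that every supported library was below both term libraries and above every fetal one. The difference between the term and supported means was 32.8 (52.6 against 19.8). An exact permutation test gave p = 0.0714 as 2 times the one-sided p, the smallest value that 2 libraries against 6 allow when the p is doubled in this way. On the second component (13.5% of the variance) the term libraries stood at -22.6 and -16.5, NRS at 10.2, -32.2 and -1.4, and IMV at 26.0, 52.9 and 31.5. All IMV libraries were on the side away from term on this axis, and NRS replicate 2 was beyond the term libraries.

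**Figure D1:**
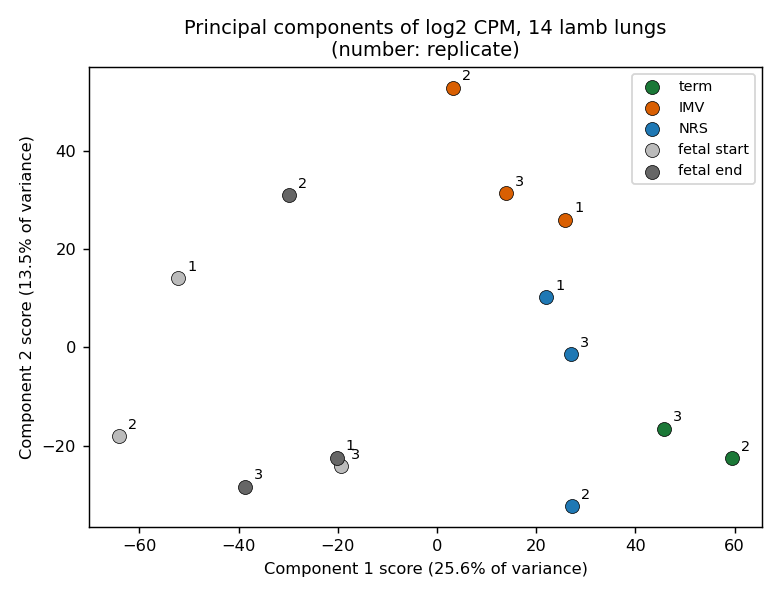
Scores of the 14 libraries on the first 2 principal components of log2 CPM, with the replicate number beside each point and the colour giving the group. The supported libraries lie between the fetal libraries on the left and the term libraries on the right (59.4 and 45.8 on the first component), and the IMV libraries reach 52.9 on the second.

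The distance between libraries was taken as the root mean square difference in log2 CPM over all tested genes. The term libraries differed from each other by 0.681. NRS libraries differed from the term libraries by 0.686 to 0.776, with a mean of 0.726 over 6 pairs, and from each other by a mean of 0.666 over 3 pairs. IMV libraries differed from the term libraries by 0.765 to 0.894 (mean 0.808, 6 pairs) and from each other by 0.698 to 0.727. The term-to-IMV pairs were therefore all farther apart than the IMV pairs, whereas term-to-NRS pairs overlapped the NRS pairs, which reached 0.704. Averaged over both term libraries, the distance was 0.768, 0.865 and 0.789 for IMV replicates 1 to 3 and 0.736, 0.718 and 0.723 for NRS replicates 1 to 3. These ranges did not overlap, and their means differed by 0.0817. With 3 animals a side the exact permutation test (two-sided) cannot go below p = 0.1, which is the value it gave. The fetal libraries were at 0.827 to 1.055 from term, and the supported mean of 0.767 was below the fetal mean of 0.934 (exact permutation test, two-sided, p = 0.00649, 6 against 6). IMV replicate 2, at 0.865, lay within the fetal range.

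**Figure D2:**
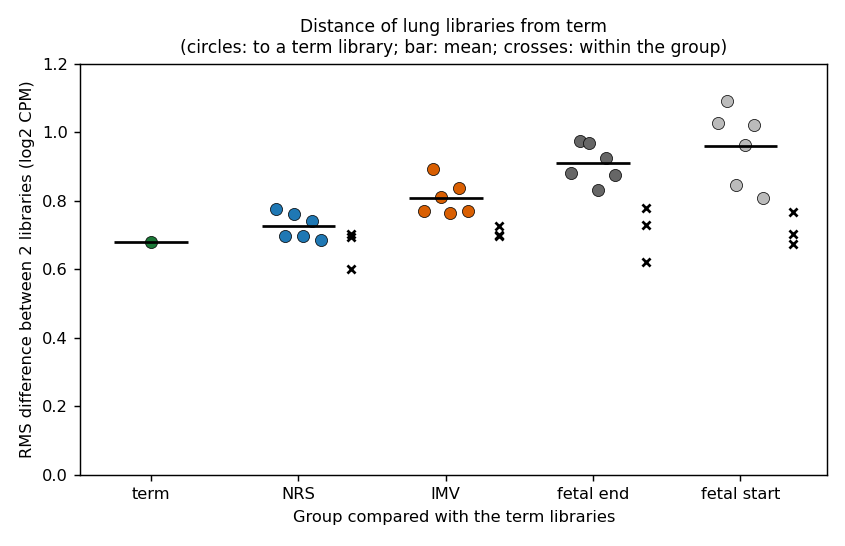
Root mean square difference in log2 CPM between each library of a group and each term library (circles, with the mean as a bar), and between libraries of the same group (crosses). NRS libraries lie 0.686 to 0.776 from term, close to the 0.681 of the only term pair, and IMV libraries lie at 0.765 to 0.894.

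Gene by gene, no transcript separated term from supported lungs firmly enough to pass the main test. With all libraries, edgeR's quasi-likelihood test called 0 of 17069 genes (0%) at a Benjamini-Hochberg adjusted p under 0.05, and the smallest adjusted p was 0.124, shared by 24 genes. At an unadjusted p under 0.05 it counted 2538 genes (14.9%), of which 1328 (7.78%) were higher and 1210 (7.09%) lower in term lungs. DESeq2, another count model, called 611 of the 15375 genes to which it gave an adjusted p (3.97%), 281 higher (1.83%) and 330 lower (2.15%) at term. The DESeq2 count depended on single libraries: it was 231 without term replicate 2, 378 without term replicate 3, 320 without IMV replicate 2 and 343 without NRS replicate 1. Of the 611 genes, 477 (78.1%) were no longer called without term replicate 2 and 435 (71.2%) without term replicate 3. Without NRS replicate 2, 881 genes were called and 59 of the 611 (9.66%) were lost. In edgeR, leaving out 1 library at a time gave between 0 and 6 called genes, with 5 without term replicate 2, 6 without term replicate 3 and 3 without NRS replicate 2. For scale, the same edgeR fit called 1736 genes (10.2%) between the supported and the fetal lungs, 982 (5.75%) higher and 754 (4.42%) lower after support. That contrast has 6 libraries on each side, and its median standard error of the log2 fold change was 0.148 against 0.209 for term and supported lungs. The median absolute log2 fold change was 0.206 there and 0.215 between term and supported lungs, so the 2 counts do not compare the sizes of the differences.

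The absence of calls did not show that term and supported lungs were alike. The median standard error of the log2 fold change was 0.209, and the median 95% interval reached 0.455 to either side of its estimate. For 10878 genes (63.7%) this interval, not adjusted for the number of genes, lay within a 2-fold change in either direction, and for the rest it reached beyond 2-fold. The middle 50% of log2 fold changes ran from -0.25 to 0.19, around a median of 0.005.

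**Figure D3:**
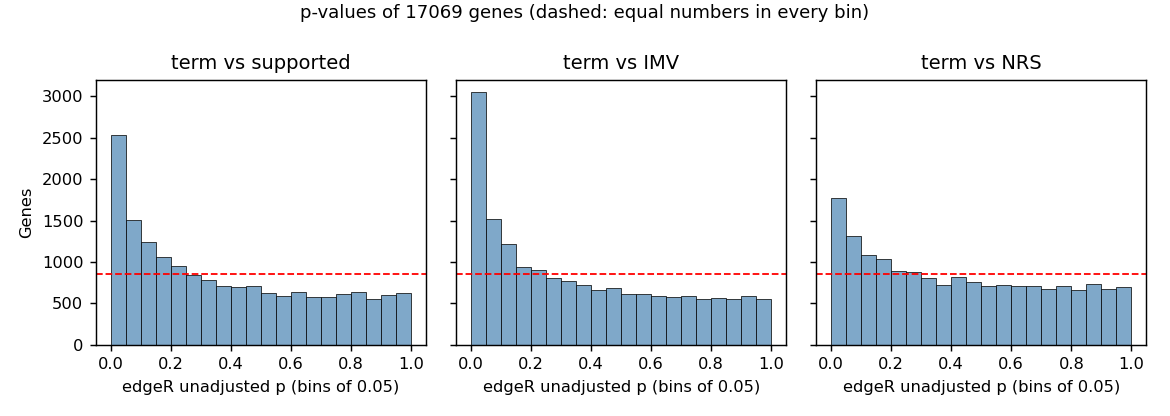
Number of the 17069 tested genes in each bin of 0.05 of the unadjusted edgeR p, for term against all supported lungs, against IMV and against NRS; the dashed line is an equal share per bin. The lowest bin holds 2538, 3047 and 1768 genes, and the highest 626, 552 and 701.

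Genes lower at term differed by more than genes higher at term. Among the genes with an unadjusted edgeR p under 0.05, the median log2 fold change was 0.40 for those higher and -0.77 for those lower, and 205 were higher by 2-fold or more against 424 lower by as much. For a 4-fold change the counts were 36 and 125. The median over DESeq2's calls was 0.43 and -1.01. The direction went with abundance. In the most abundant 5690 genes 757 had an unadjusted p under 0.05 and were higher and 342 were lower, with a median absolute log2 fold change of 0.36. In the least abundant 5689 genes 175 were higher and 424 lower, with a median of 1.35 and a median standard error of 0.507 against 0.125 in the most abundant. The middle 5690 genes had 396 higher and 444 lower. The larger changes at the low end were thus also the least precise, and the part of precision in the difference between directions was not tested.

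In 2528 genes (14.8%) the term libraries did not overlap the 6 supported ones, with term above in 1305 (7.65%) and below in 1223 (7.17%). With so few libraries some genes separate in this way by chance, and their number was not estimated. The gaps in the 2528 genes were mostly small. Over all 17069 tested genes, with 0.1 CPM added to each value, all 6 supported libraries were 4-fold or more away from both term libraries in 2 genes, both picked out after their values were seen. In ENSOARG00000000021 the supported libraries were below term, and in ENSOARG00000024848, a low transcript, they were above it.

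The levels of the fetal libraries, which are outside the contrast of term with supported lungs, place each gene in 1 of 3 orders of the group means. A gene was short of term where the supported mean lay between the fetal and the term mean. It was displaced from term where the fetal mean lay between the supported and the term mean, so that supported lungs were farther from term than fetal lungs were. It was past term where the term mean lay between the fetal and the supported mean. Being counted as short of term does not require that the step from fetal to supported exceeds the spread between lambs. Over all tested genes with a higher term mean, 52.7% were short, 23.8% displaced and 23.5% past, and over those with a lower term mean 54.7%, 23.9% and 21.5%.

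Among the 281 genes that DESeq2 called higher at term, 180 (64.1%) were short of term, 99 (35.2%) displaced and 2 (0.712%) past. Among the 330 called lower at term, 143 (43.3%) were short, 174 (52.7%) displaced and 13 (3.94%) past. Genes with an unadjusted edgeR p under 0.05 had like shares when higher (813 of 1328 short, 61.2%, and 485 displaced, 36.5%). When lower, 603 of 1210 were short (49.8%) and 538 displaced (44.5%). Short of term was thus the most frequent order among genes higher at term. Among genes lower at term, displaced was the most frequent order in DESeq2's calls and short of term in the edgeR set. With fetal start alone as the reference, DESeq2's genes lower at term were 48.2% short and 47.9% displaced. The supported libraries enter both the choice of genes and their order, and a large gap between term and supported leaves little room for the past order. These shares are therefore a description of levels and no test. For the genes DESeq2 called higher, the median difference was 0.44 between term and supported and 0.06 between supported and fetal, on the log2 scale. For those called lower it was -1.0 and 0.07.

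The 4 genes short of term with the smallest p, 2 in each direction, show a part of the way covered, or none of it. ENSOARG00000012085 had 269.7 and 222.9 CPM in the term libraries, and supported libraries ran from 145.8 to 171.3 CPM (median 162.6). Its fetal libraries ran from 123.2 to 137.6 CPM (median 126.4), so the fetal, supported and term levels formed 3 steps without overlap. The log2 fold change of term over supported was 0.60 ± 0.09 (SE, edgeR adjusted p = 0.124), and that of supported over fetal 0.34 ± 0.06 (SE, edgeR adjusted p = 0.0104). IMV and NRS did not differ here beyond the spread between lambs, at 0.00 ± 0.09 on the log2 scale (SE, edgeR adjusted p = 0.993).

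ENSOARG00000014882 was a low transcript with 9.93 and 5.36 CPM at term. NRS libraries had 1.23, 2.01 and 3.37 CPM, and IMV libraries 0.404, 0.765 and 0.855 CPM, within the fetal range of 0.327 to 0.921 CPM. All 6 supported libraries were below both term libraries, and only the NRS libraries were above every fetal one. Term over supported was 2.64 ± 0.44 on the log2 scale (SE, edgeR adjusted p = 0.124), with 3.49 ± 0.55 against IMV and 1.79 ± 0.52 against NRS. The difference between IMV and NRS, -1.70 ± 0.51, did not pass (SE, edgeR adjusted p = 0.36).

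Of the genes lower at term, ENSOARG00000024848 had 0.381 and 0.385 CPM in the term libraries, whereas supported libraries ran from 2.14 to 3.76 CPM (median 2.39) and fetal libraries from 1.69 to 5.91 CPM (median 2.60). Supported and fetal ranges overlapped throughout, so the whole of the gap lay between supported and term lungs. The log2 fold change of term over supported was -2.73 ± 0.50 (SE, edgeR adjusted p = 0.124), against -0.16 ± 0.28 for supported over fetal (SE, edgeR adjusted p = 0.752). ENSOARG00000020290 had 7.54 and 6.45 CPM at term, 11.05 to 17.4 CPM with support (median 14.8) and 14.96 to 21.1 CPM in fetal lungs (median 19.2). Term libraries were below all others, and the supported and fetal ranges overlapped. Term over supported was -1.06 ± 0.20 (SE, edgeR adjusted p = 0.124) and supported over fetal -0.35 ± 0.13 (SE, edgeR adjusted p = 0.104).

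In the displaced genes the supported lungs were on the far side of the fetal lungs. The widest gap of the 12 genes described by order was that of ENSOARG00000000021, at 56.5 and 62.6 CPM in the term libraries and 0.651 to 3.88 CPM (median 1.53) in the supported ones. Fetal end libraries had 38.9, 32.1 and 42.3 CPM, nearer to term than to support, but fetal start libraries had 1.38, 25.5 and 3.94 CPM and overlapped the supported range. The log2 fold change was 4.96 ± 0.75 for term over supported (SE, edgeR adjusted p = 0.124) and -3.36 ± 0.64 for supported over fetal (SE, edgeR adjusted p = 0.0102). Both kinds of support were low: IMV at 0.881, 2.13 and 0.927 CPM and NRS at 0.651, 3.80 and 3.88 CPM. With fetal start libraries so far apart, the level from which support began is uncertain for this gene.

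ENSOARG00000007114 had 46.1 and 50.5 CPM at term, 26.4 to 35.3 CPM with support (median 28.0) and 30.5 to 42.4 CPM in fetal lungs (median 34.3). The 3 IMV libraries (26.4, 27.2 and 26.7 CPM) lay below every fetal library, and the NRS libraries (29.6, 35.3 and 28.8 CPM) overlapped them. Term over supported was 0.74 ± 0.12 (SE, edgeR adjusted p = 0.124), and supported over fetal was -0.31 ± 0.09 (SE, edgeR adjusted p = 0.0432).

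The displaced genes that were lower at term showed little difference between supported and fetal lungs. ENSOARG00000018839 had 3.84 and 2.24 CPM at term, 6.94 to 14.3 CPM with support (median 9.27) and 7.47 to 9.64 CPM in fetal lungs (median 8.41). IMV libraries (11.0, 14.3 and 9.80 CPM) were above all fetal libraries, and NRS libraries (8.74, 6.94 and 7.13 CPM) were within or below them. Term over supported was -1.63 ± 0.23 (SE, edgeR adjusted p = 0.124) and supported over fetal 0.14 ± 0.15 (SE, edgeR adjusted p = 0.548). ENSOARG00000005331 followed a like course, with 18.8 and 20.2 CPM at term, 28.8 to 49.2 CPM with support (median 40.5) and 26.1 to 40.2 CPM in fetal lungs (median 35.8). Its log2 fold changes were -0.98 ± 0.17 (SE, edgeR adjusted p = 0.124) and 0.15 ± 0.11 (SE, edgeR adjusted p = 0.409). For both genes the step from fetal to supported did not exceed the spread between lambs, so they are displaced by the order of means only.

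In the 4 genes past term with the smallest p, 2 in each direction, term levels were near fetal levels, which the order by itself does not require. Most supported libraries stood apart from both. That follows from the choice, since genes were picked for the gap between term and supported, and in this order the fetal mean lies farther still. Their values of supported over fetal are therefore no separate test. ENSOARG00000014616 had 32.9 and 32.1 CPM at term and 30.7 to 37.9 CPM in fetal lungs (median 33.3), against 21.6 to 25.9 CPM with support (median 24.9). All 6 supported libraries were below all 8 others. The log2 fold change of supported over fetal was -0.47 ± 0.06 (SE, edgeR adjusted p = 0.0023), and term over supported was 0.42 ± 0.08 (SE, edgeR adjusted p = 0.135). ENSOARG00000019970, an abundant transcript, had 398.6 and 573.9 CPM at term and 475.7 to 591.1 CPM in fetal lungs (median 551.0). Supported libraries ran from 228.3 to 416.9 CPM (median 342.6), and NRS replicates 2 and 3 exceeded term replicate 2. Term over supported was 0.56 ± 0.16 (SE, edgeR adjusted p = 0.174), and supported over fetal -0.72 ± 0.11 (SE, edgeR adjusted p = 0.00496). The size of the first rests on single term libraries, at 0.27 with term replicate 2 alone and 0.80 with term replicate 3 alone.

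ENSOARG00000005790 had 10.8 and 11.8 CPM at term, 9.996 to 13.1 CPM in fetal lungs (median 10.9) and 13.3 to 20.9 CPM with support (median 18.8). IMV libraries were at 20.9, 20.3 and 20.3 CPM and NRS libraries at 17.3, 13.3 and 15.1 CPM, so NRS lay between IMV and term. Supported over fetal was 0.64 ± 0.10 (SE, edgeR adjusted p = 0.00398) and term over supported -0.64 ± 0.14 (SE, edgeR adjusted p = 0.15). In ENSOARG00000013899 the group of supported lungs was split: 5 libraries had 32.2 to 42.3 CPM, and NRS replicate 2 had 1.80 CPM. Term libraries had 1.52 and 3.71 CPM and fetal libraries 1.74 to 3.01 CPM (median 2.25), so NRS replicate 2 was at the fetal and term level. Term over supported was -3.53 ± 0.88 (SE, edgeR adjusted p = 0.163) with all libraries and -3.80 without NRS replicate 2 (edgeR adjusted p = 0.00528), and supported over fetal was 3.72 ± 0.56 (SE, edgeR adjusted p = 0.00411).

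**Figure D4:**
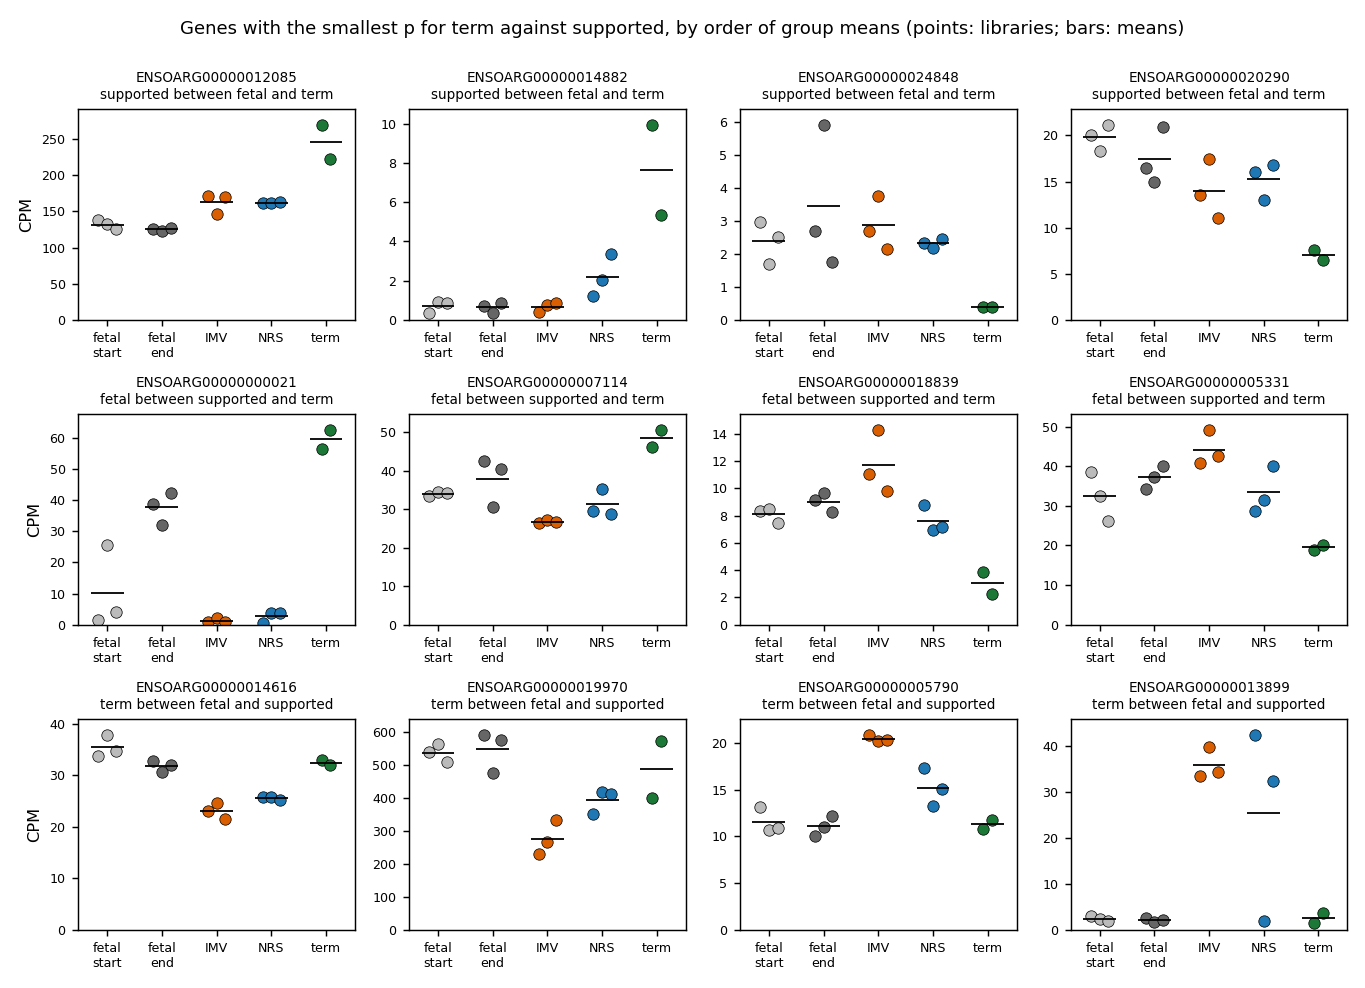
CPM of the 12 genes described by order, in each of the 14 libraries (points) with group means (bars); the top row is short of term, the middle row displaced from it and the bottom row past it. ENSOARG00000000021 has 32.1 to 42.3 CPM at fetal end, at most 3.88 CPM with support and 56.5 and 62.6 CPM at term, and in ENSOARG00000013899 NRS replicate 2 (1.80 CPM) sits with the fetal and term libraries.

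Taken separately, the comparison of term with IMV gave more genes than that with NRS by DESeq2 and at an unadjusted p, and by edgeR's adjusted p neither gave any. Against IMV, edgeR called 0 genes (0%) with a smallest adjusted p of 0.0649, and 3047 genes (17.9%) had an unadjusted p under 0.05, 1496 higher and 1551 lower at term. DESeq2 called 1136 (7.39%), 499 higher and 637 lower. Against NRS, edgeR called 0 genes (0%) with a smallest adjusted p of 0.388, 1768 genes (10.4%) had an unadjusted p under 0.05, and DESeq2 called 61 as higher and 74 as lower (0.878% together). Both comparisons use the same term libraries. The animal identifiers of IMV replicates 1 and 2 end in 17, and those of IMV replicate 3, the NRS and the term libraries in 18. With this suffix as a covariate, 1718 genes had an unadjusted edgeR p under 0.05 against IMV and 1680 against NRS. Suffix and kind of support go partly together, so their shares in the difference between the comparisons cannot be told apart. Over all tested genes the NRS mean was nearer to term than the IMV mean in 10107 (59.2%), and over the 611 genes DESeq2 called between term and supported lungs in 478 (78.2%). In those 611 genes the median absolute gap to term was 0.813 for IMV and 0.585 for NRS on the log2 scale. The same libraries entered the choice of the 611 genes, so their share and gaps are a description and no test. The difference between IMV and NRS itself gave 0 genes in edgeR (0%, with 1854 genes or 10.9% at an unadjusted p under 0.05) and 82 higher and 53 lower after IMV in DESeq2 (0.96% together).

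The edgeR count for term against IMV was sensitive to libraries outside that comparison, which enter only through the shared scaling, filter and spread. It was 84 (30 higher, 54 lower) without NRS replicate 2 and 190 (80 higher, 110 lower) without fetal start replicate 3, but 9 without fetal start replicate 1 and 0 to 3 in the other refits. Against NRS the count stayed between 0 and 3 in all 14 such refits.

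The genes with the smallest p against IMV included 3 of those above, ENSOARG00000014882, ENSOARG00000007114 and ENSOARG00000018839. The other was ENSOARG00000013521, an abundant transcript with 407.5 and 372.9 CPM at term. IMV libraries had 810.0, 713.1 and 765.6 CPM, as high as fetal libraries (629.5 to 832.4 CPM, median 711.6), whereas NRS libraries had 484.3, 459.6 and 543.2 CPM. NRS lay between term and all fetal libraries without overlap. Term over IMV was -0.97 ± 0.14 (SE, edgeR adjusted p = 0.0649) and term over NRS -0.35 ± 0.14 (SE, edgeR adjusted p = 0.439). IMV over NRS was 0.62 ± 0.12, which edgeR did not call (SE, edgeR adjusted p = 0.36) but DESeq2 did (DESeq2 adjusted p = 0.00267).

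Against NRS, ENSOARG00000012085 and ENSOARG00000018839 were again among the genes with the smallest p. ENSOARG00000006724 had 106.5 and 114.3 CPM at term and 79.0, 75.2 and 78.6 CPM after NRS, with IMV slightly higher at 85.0, 84.1 and 86.5 CPM and fetal libraries at 59.2 to 74.5 CPM (median 69.0). It formed steps without overlap from fetal to NRS to IMV to term. Term over NRS was 0.51 ± 0.09 (SE, edgeR adjusted p = 0.388) and term over IMV 0.37 ± 0.09 (SE, edgeR adjusted p = 0.0915). ENSOARG00000001195 had 4.36 and 5.32 CPM at term and 11.3, 9.41 and 10.4 CPM after NRS, within the fetal range of 7.86 to 11.9 CPM, as were the IMV libraries at 8.81, 9.34 and 8.55 CPM. Term over NRS was -1.10 ± 0.20 (SE, edgeR adjusted p = 0.388), and supported over fetal 0.01 ± 0.12 (SE, edgeR adjusted p = 0.984).

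Because the supported libraries enter both sides of the orders above, genes were also chosen with 1 kind of support and read with the other, so that no library was shared. The comparisons can still share other differences. The identifiers of all NRS and term libraries end in 18. Those of IMV replicates 1 and 2 and fetal start replicate 1 end in 17, and those of fetal end in 19. The part of this suffix in the results below was not tested. Of the 358 genes higher after NRS than in fetal lungs (edgeR adjusted p under 0.05, 2.1% of genes tested), 263 (73.5%) were higher at term than after IMV. Their median log2 fold change of term over IMV was 0.43, with quartiles of -0.04 and 0.85. Of the genes lower after NRS (0.797% of genes tested), 32 (23.5%) were higher at term than after IMV, and the median was -0.21 (quartiles -0.54 to -0.01). Over all genes 50.4% were higher at term than after IMV, and the median was 0.00. Where NRS lungs differed from fetal lungs, the sign of term over IMV was thus mostly in the same direction. An unadjusted p under 0.05 in that direction was reached by 38.0% of the genes higher and 36.8% of the genes lower after NRS, where 8.76% and 9.09% of all genes did so. These values do not show whether the term level lay beyond the NRS level. When each of the 14 libraries was left out, the share higher at term than after IMV moved as well. It ran from 56.5% (without NRS replicate 2) to 80.5% for genes higher after NRS. For genes lower after NRS it ran from 14.8% to 38.6% (without NRS replicate 2). In these refits the median of the genes higher after NRS ran from 0.13 to 0.60, with 0.13 both without term replicate 2 and without NRS replicate 2. Their number ran from 153 (without NRS replicate 3) to 714 (without fetal start replicate 3). The median of the genes lower after NRS ran from -0.34 (without NRS replicate 1, 27 genes) to -0.11 (without NRS replicate 2, 57 genes), and 380 genes were chosen without fetal start replicate 3. Both numbers also shrank by over 1.5 times without any 1 of the NRS libraries or fetal end replicate 3, and that of the genes lower after NRS without fetal start replicate 2 as well.

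The reverse choice gave smaller differences. Of the 771 genes higher after IMV than in fetal lungs (4.52% of genes tested), 505 (65.5%) were higher at term than after NRS, with a median of 0.15 (quartiles -0.15 to 0.40). An unadjusted p under 0.05 was reached by 19.1% as higher and 6.23% as lower at term, against 5.31% and 5.05% of all genes. Without IMV replicate 1 the choice held 16.6% as many genes and their median was -0.04. The median was 0.02 without term replicate 2, 0.03 without IMV replicate 3 and 0.08 without NRS replicate 2, so this direction rests on single libraries. Of the 501 genes lower after IMV (2.94%), 217 (43.3%) were higher at term than after NRS, with a median of -0.03. An unadjusted p under 0.05 was reached by 10.4% of them as lower and 2.59% as higher at term. This choice held 29 genes without IMV replicate 1, 61 without IMV replicate 2 and 808 without fetal end replicate 2, and its median ran from -0.11 to 0.00 when each of the 14 libraries was left out. It also shrank by over 1.5 times without IMV replicate 3, NRS replicate 1, fetal start replicate 2 or either of replicates 1 and 3 of fetal end. The number of genes higher after IMV shrank by as much without any 1 of the IMV libraries, fetal start replicate 2 or either of replicates 1 and 3 of fetal end.

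Read from the other side, genes at which term differed from 1 kind of support were followed from fetal lungs to the other kind. The 1496 genes higher at term than after IMV (unadjusted edgeR p under 0.05, 8.76% of genes tested) were higher after NRS than in fetal lungs in 1074 cases (71.8%, median 0.14), and the 906 genes higher at term than after NRS (5.31%) were higher after IMV than in fetal lungs in 675 (74.5%, median 0.19). Over all genes these shares were 48.4% and 50.3%. Of 1551 lower at term than after IMV (9.09%), 466 (30.0%) were higher after NRS than in fetal lungs (median -0.18), and 21.9% had an unadjusted edgeR p under 0.05 as lower after NRS, where 8.95% of all genes did. Of 862 lower at term than after NRS (5.05%), 363 (42.1%) were higher after IMV than in fetal lungs, with a median of -0.12 that was 0.06 without NRS replicate 2 and 0.01 without term replicate 2. For the genes higher at term the medians kept their sign in all 14 refits, from 0.09 (without IMV replicate 3) to 0.21 against IMV and from 0.11 (without term replicate 2) to 0.25 against NRS. For the genes lower at term than after IMV the median ran from -0.23 to -0.10, the latter without NRS replicate 2. Of the genes lower at term than after NRS, 14.7% had an unadjusted p under 0.05 as higher and 22.7% as lower after IMV than in fetal lungs, where 14.7% and 12.4% of all genes did.

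**Figure D5:**
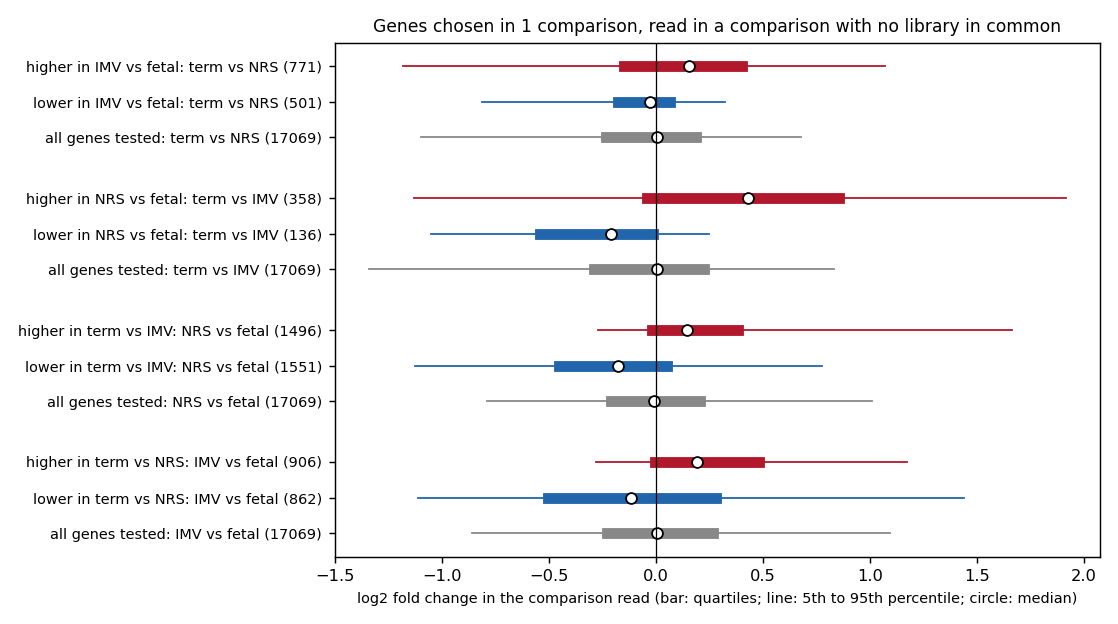
Log2 fold changes of genes chosen in 1 comparison and read in another that shares no library with it, with medians (circles), quartiles (thick bars) and the 5th to 95th percentiles (lines); the number of genes is in brackets. Genes higher after NRS than in fetal lungs (358) have a median of 0.43 for term over IMV, where all genes have 0.00, and genes lower at term than after NRS (862) spread widely on both sides for IMV over fetal.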

How the data were processed

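The deposited values are raw counts for each Ensembl gene in 1 table, checked here to be whole numbers in all 14 sample columns, with 0 columns left unused. All libraries carry the same sequencing run and lane in their descriptions. Per the submitters' processing notes, the tools were STAR 2.7.0f, featureCounts 1.6.3 of Subread, cutadapt 1.16, DESeq2 1.22.2 and bcl2fastq, with no role or order given, and the build was Oar_v3.1. Not given in the sources used here are how multi-mapping reads were treated, the strand setting and the release of the annotation, which leaves the counts of genes that overlap or have close copies uncertain. The kit was stranded and used total RNA, per the labels' protocols. Library totals ran from 23267448 to 31586235 counts, and their number and the spread between lambs limit the precision.

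Groups came from the sample titles. Counts were tested with edgeR 4.0.16 in R 4.3.3 (quasi-likelihood F test after TMM scaling, on genes kept by filterByExpr at a count minimum of 10) in 1 fit of 14 libraries with 5 group means and 9 residual degrees of freedom. Supported lungs are the mean of the IMV and NRS group means. Of 27054 identifiers 4198 had no count, and 17069 were tested, which hold 99.97% of counts. Standard errors are the log2 fold change over the square root of F. Log2 CPM uses a prior count of 2. DESeq2 1.42.0 used the same contrast. Other alternatives were RLE scaling, no filter, only the 8 libraries, a replicate block, the identifier suffix, a 1.5-fold minimum (glmTreat) and each library left out. Robust estimation, limma-voom (limma 3.58.1) and the genes chosen with 1 kind of support came later, with the data in view. The procedure was tested on simulated counts.

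The comparison and the rules were chosen with earlier results of these data known. Named genes were to be the largest called changes without overlap, with the smallest p as the fallback, 2 per direction in each order and comparison. Since edgeR called none, the smallest p was used. The reference table carries Ensembl identifiers in 0 of 35057 rows, and 0 of the 56 marker symbols in 15 cell type lists occur in the counts, so no list could be tested. Libraries of a group differed by a chi-square of 27.07 to 85.33 per degree of freedom, so none repeated another.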

Additional observations from a re-analysis of the deposited data

Results flagged for a closer look

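Among the 15 named genes, each taken over the 6 supported libraries, 3 had a library whose gap to its neighbour was large for the range of the group by Dixon's criterion at 95%. The criterion's rate of about 1 in 20 by chance is for values from a single normal group. Here IMV and NRS libraries were pooled and the genes were picked for a small p, so that rate is no measure for the 3. ENSOARG00000013899 had 1.80 CPM in NRS replicate 2 against 32.2 to 42.3 CPM in the other supported libraries. ENSOARG00000007114 had 35.3 CPM in NRS replicate 2 against 26.4 to 29.6 CPM in the others. ENSOARG00000024848 had 3.76 CPM in IMV replicate 2, and the other supported libraries had at most 2.68 CPM. NRS replicate 2, the library with the lowest total count (23267448), was the distant library in 2 of the 3, and in both it lay on the side of the term libraries.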

How the results depend on the processing

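The count of 0 genes in edgeR for term against supported, IMV and NRS lungs was also 0 with RLE scaling, without the filter, in a fit of only the 8 libraries, with the identifier suffix as a covariate, against a 1.5-fold minimum, with robust estimation and with limma-voom. For term against supported lungs it was 0 as well with supported libraries as 1 group and with only those whose animal identifiers end in 18, as both term identifiers do. With DESeq2 the counts were 281 higher and 330 lower at term against supported lungs, 499 and 637 against IMV, and 61 and 74 against NRS, and 323 of the 611 genes called against supported lungs were short of term. Leaving out 1 library gave 0 to 6 genes for term against supported lungs, 0 to 190 against IMV and 0 to 3 against NRS, with 3 against NRS without IMV replicate 2, 2 each without term replicate 3 and NRS replicate 2, and 1 without term replicate 2. Against supported lungs 2 genes passed without fetal end replicate 2 and 1 each without IMV replicate 1 and fetal start replicate 2. Against IMV 3 passed without either term library, 2 without fetal end replicate 2 and 1 without IMV replicate 3. With 1 term library left, that library is assumed to vary like those of the other groups. Same-numbered libraries came from different animals. Their deviations from group means correlated at -0.152 to 0.201 over 7 pairs of term, IMV and NRS libraries. Deviations within a group of 2 or 3 libraries are tied to each other, so these values cannot decide whether the numbers pair the libraries. With the replicate block 0 genes passed in each comparison.

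The 20 pairs of named gene and comparison kept their direction in all 340 alternative values, each for 1 gene in 1 fit. With DESeq2 all 20 passed the threshold. The named genes were not read in the refits that left out a library from outside their comparison. Of the edgeR fits with both term libraries in which they were read, only that without NRS replicate 2 gave a pass. It was for ENSOARG00000013899 against supported lungs (edgeR adjusted p = 0.00528). Without term replicate 2 the log2 fold change of ENSOARG00000018839 was -2.07 against supported lungs and -2.38 against IMV. Without term replicate 3 that of ENSOARG00000012085 was 0.73 against supported lungs. Against supported lungs, the edgeR adjusted p of ENSOARG00000018839, ENSOARG00000012085 and ENSOARG00000013899 was highest with the 1.5-fold minimum, which asks for a larger change. In the other edgeR alternatives it reached 0.444, 0.3 and 0.448, each with only the supported libraries whose identifiers end in 18. With fetal end or fetal start alone as the reference, 51.1% and 56.0% of DESeq2's genes were short of term, against 52.9% with both. The gap between term and supported lungs on the first component was 32.8, 32.8 with RLE scaling and 33.9 without the filter. The 2 term libraries and the shared spread limit every comparison.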
